A study of Mus musculus with 12 samples.

Results

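Mouse embryonic stem cells of 3 kinds were compared at late passage by the cytosine methylation that each still carried. The part described here is made of the 2361307 autosomal cytosines, on chromosomes 1 to 19, that had a value in all 3 late libraries, of 7811806 listed autosomal cytosines and 8119606 listed in all. These cytosines were 44.4% of the autosomal cytosines measured in the late androgenetic library, 63.9% of those in the late parthenogenetic library and 55.9% of those in the late diploid library. The libraries came from androgenetic haploid cells (ahESCs, which hold a paternal genome only), from parthenogenetic haploid cells (phESCs, which hold a maternal genome only) and from diploid embryonic stem cells, all labelled WT, with 1 library for each type and no replicate. The labels give the passage as late without a passage number, and name no clone, sex, medium or feeder layer. The assay was RRBS (reduced representation bisulfite sequencing), in which fragments cut by the enzyme MspI at CCGG are sequenced, giving, at each cytosine, the percentage of reads that stayed unconverted. The other 9 libraries were the same 3 stem cell types at early passage, WT, bimaternal (BM) and bipaternal (BP) embryos at E15.5, BM brain at E19.5, and BM and WT adult brain. They served as references only, and the labels say that in BM and BP animals differentially methylated regions had been deleted.

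DNA methylation in mammals is placed mostly on the cytosine of CpG by the DNMT3 enzymes and is copied at cell division by DNMT1 with its partner UHRF1, while TET enzymes oxidise it. Embryonic stem cells can lose much of it in culture, including the parent-specific methylation of imprinted genes, which normally tells the maternal from the paternal copy. Haploid stem cells of uniparental origin are used in place of a gamete genome, so the marks that they still carry are of interest for embryos made from them.

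Some properties of the libraries touch every comparison below. Read depth is unknown, since percentages were deposited without coverage. On unplaced chromosome Y sequence late ahESCs had 4124 values, late phESCs 2348 and late diploid cells 0. The late diploid library thus also differs from both late haploid libraries in which reference positions were reported. This and cell type cannot be told apart. The early ahESC, phESC and diploid libraries had 0 such values each, so both late haploid libraries differ in this from their early ones. In ahESCs and phESCs the difference in reported positions and passage cannot be told apart either. Such values were also present in WT adult brain (7697) and BM adult brain (2209), and the embryos and the E19.5 brain had 0. By correlation, late diploid cells resembled the early phESC library most: over 17862 tiles (defined below) with a value in all 6 stem cell libraries, Pearson's r was 0.925 between these 2, 0.917 between late diploid cells and late ahESCs, 0.854 between late diploid cells and late phESCs, and 0.803 between late and early diploid cells. By the median absolute difference, late diploid cells were nearer to late phESCs (5.56 points) and late ahESCs (5.59) than to early phESCs (10.2). Late phESCs had r = 0.880 with early phESCs and 0.858 with late ahESCs. In the 2465 of these tiles that were under 20% in both early ahESCs and early diploid cells, late diploid cells had r = 0.784 with early phESCs, whereas late phESCs had r = 0.515 with early ahESCs, 0.507 with early diploid cells, 0.322 with early phESCs and 0.286 with late diploid cells. In these low tiles the late diploid library thus stood nearer to early phESCs than the late phESC library did. The labels were used as given, and whether libraries were exchanged was not tested, so each value that rests on the late diploid, early phESC or late phESC label has this limit. These correlations are descriptions over tiles that share chromosomes and base composition. As a measure of error within a library, the cytosines on opposite strands of the same CpG were compared at 80988 CpGs. The SD of the strand difference was 11.5 points in late phESCs, 7.76 in late ahESCs and 7.21 in the late diploid library, so the late phESC library was the noisiest of the 3.

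Promoter sequences of genes on which the results turn are shown first, since they make visible which CpGs carried the differences. Each runs from 250 bases before to 50 bases after an annotated gene start, 5′ to 3′ on the gene's strand, from RefSeq on GRCm38.p6. Capitals mark the CpGs at which at least 1 cytosine was measured in all 3 late libraries and had reached 20% in another library. Tmem267 was methylated in late phESCs alone of the 3, Clcn4 was lowest in late phESCs, Fv1 and Col6a5 were highest in late diploid cells, Gdpd3 was methylated in all 3, and Plagl1, an imprinted promoter, was low in all 3.
Tmem267 (chr13:119488223-119488522, plus strand): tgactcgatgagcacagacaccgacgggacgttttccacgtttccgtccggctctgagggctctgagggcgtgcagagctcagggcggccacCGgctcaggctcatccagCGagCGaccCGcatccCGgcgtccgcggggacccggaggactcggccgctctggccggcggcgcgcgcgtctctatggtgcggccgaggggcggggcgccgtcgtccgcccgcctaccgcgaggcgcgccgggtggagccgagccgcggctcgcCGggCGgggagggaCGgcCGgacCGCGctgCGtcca
Clcn4 (chr7:7299508-7299807, minus strand): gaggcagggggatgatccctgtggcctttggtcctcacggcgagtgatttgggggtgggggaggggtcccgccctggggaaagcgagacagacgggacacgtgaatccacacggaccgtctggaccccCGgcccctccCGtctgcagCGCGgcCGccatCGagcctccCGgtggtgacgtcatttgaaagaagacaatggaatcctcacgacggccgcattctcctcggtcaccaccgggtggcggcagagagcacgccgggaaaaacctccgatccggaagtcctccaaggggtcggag
Fv1 (chr4:147868729-147869028, plus strand): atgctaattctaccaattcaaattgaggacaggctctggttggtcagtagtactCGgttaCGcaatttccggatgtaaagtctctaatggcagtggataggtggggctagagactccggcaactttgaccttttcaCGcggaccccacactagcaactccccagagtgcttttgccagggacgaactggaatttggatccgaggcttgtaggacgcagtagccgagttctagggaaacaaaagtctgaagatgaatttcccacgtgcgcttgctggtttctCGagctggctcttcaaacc
Col6a5 (chr9:105960594-105960893, minus strand): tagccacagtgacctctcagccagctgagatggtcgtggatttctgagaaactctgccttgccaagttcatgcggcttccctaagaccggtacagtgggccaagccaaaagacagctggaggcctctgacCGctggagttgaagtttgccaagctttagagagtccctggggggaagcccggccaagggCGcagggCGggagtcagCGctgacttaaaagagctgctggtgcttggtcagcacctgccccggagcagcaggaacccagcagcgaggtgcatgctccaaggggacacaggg
Gdpd3 (chr7:126766164-126766463, plus strand): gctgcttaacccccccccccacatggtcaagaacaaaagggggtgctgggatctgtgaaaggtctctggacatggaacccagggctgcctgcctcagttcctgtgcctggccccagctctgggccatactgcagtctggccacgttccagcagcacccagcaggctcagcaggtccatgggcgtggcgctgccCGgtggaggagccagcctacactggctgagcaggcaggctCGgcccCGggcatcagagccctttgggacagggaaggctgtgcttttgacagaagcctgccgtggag
Plagl1 (chr10:13090582-13090881, plus strand): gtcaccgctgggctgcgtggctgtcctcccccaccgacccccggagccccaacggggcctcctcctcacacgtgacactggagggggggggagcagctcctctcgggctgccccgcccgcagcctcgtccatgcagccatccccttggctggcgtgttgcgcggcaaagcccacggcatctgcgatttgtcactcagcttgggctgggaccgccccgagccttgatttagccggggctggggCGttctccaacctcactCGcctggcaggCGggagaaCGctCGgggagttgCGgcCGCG

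In the Tmem267 sequence 18 cytosines were measured, 17 of them in the capital CpGs. Their level ran from 2.38% to 94.7% in late phESCs, with a mean of 56.1%, and the means were 5.09% in late ahESCs and 2.98% in the late diploid library. The CpG at base 283, counted from the first base shown, stood at 94.7% in late phESCs, 0% in late ahESCs and 2.0% in the late diploid library. The sequence holds 50 CpGs, and 0.88% of 31223 autosomal promoter sequences of this length hold as many. The 12 measured cytosines of the Clcn4 sequence had means of 1.77% in late phESCs, 18.7% in late ahESCs and 33.2% in the late diploid library, and no late phESC value exceeded 11.9%, while the lowest late diploid value was 16.9%. All 4 measured cytosines of the Fv1 sequence were at 32.6% or more in late diploid cells and at 6.25% or less in both haploid libraries. In the Col6a5 sequence the 8 cytosines lay between 38.6% and 57.8% in late diploid cells, between 9.29% and 23.6% in late ahESCs and between 3.28% and 16.2% in late phESCs. The 4 cytosines of the Gdpd3 sequence were between 46.2% and 89.7% in all 3 libraries, with means of 77.6%, 51.6% and 64.3% in late ahESCs, phESCs and diploid cells, against 40.2%, 68.7% and 41.2% in the early libraries of the same types. At the Plagl1 promoter 16 cytosines averaged 2.46%, 2.24% and 0.49% in late ahESCs, phESCs and diploid cells, against 0.56%, 0.67% and 48.1% in the early libraries of the same types, so that only the diploid value was lower at late than at early passage. Cytosines of a promoter lie on the same fragments and are not replicates. The genes shown for a difference were picked by their late values, so the distance between libraries in these sequences follows in part from that choice.

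Methylation at late passage was low in all 3 types, and lowest in the diploid cells. Over all members the mean was 4.05% in late ahESCs, 3.40% in late phESCs and 2.97% in late diploid cells. Most members were low in the other libraries too. The file lists cytosines of GC as well as of CG, and 49.1% of the members whose sequence context was known were in CpG. CpG members outside CCGG had medians of 0.91%, 0% and 0.52% in late ahESCs, phESCs and diploid cells. GC cytosines outside CpG averaged 0.84%, 0.39% and 0.46% in the same order, which serves as a background level of unconverted cytosines outside CpG. The comparisons therefore used the 260741 members that had reached 20% in at least 1 of the 9 other libraries, and 98.4% of those with known context were in CpG. Their mean was 27.6% in late ahESCs, 26.2% in late phESCs and 22.2% in late diploid cells, with SDs over cytosines of 21.8, 19.9 and 19.08 points. In early ahESCs, phESCs and diploid cells the same cytosines averaged 54.6%, 32.0% and 56.0%. The 20% rule could be met in these early libraries but not in the late ones, which favours higher early than late levels. Over all members, chosen without this rule, the early means were 6.62%, 4.11% and 6.78% in the same order. Of the 260741 cytosines 6.01% were at 50% or more in all 3 late libraries, 0.263% at 75% or more in all 3, and 20.6% under 10% in all 3.

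Tiles of 1 kb with at least 5 such cytosines gave 18027 regions. Their median level was 27.3% in late ahESCs, 26.9% in late phESCs and 21.7% in late diploid cells. The highest of the 3 values was the ahESC value in 48.8% of tiles, the phESC value in 42.3% and the diploid value in 8.93%. The diploid value was the lowest in 64.0% of tiles. The 3 libraries lay within 10 points of each other in 53.8% of tiles, and at least 25 points apart in 818 tiles (4.54%). With 1 library per type there is no replicate error and no test was made, so 25 points served as the size that counts as higher or lower, and counts were read against how many tiles each library separates between its own strands.

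Late ahESCs stood above late diploid cells in most tiles by a small amount. The mean difference over cytosines was 5.40 points, and 5.87 points with known CpGs outside CCGG only. The median over tiles was 4.63 points, with a positive sign in 80.4% of tiles. At 25 points 201 tiles were higher (1.11% of 18027) and 20 were lower (0.111%), and at 40 points 8 were higher and 2 lower. Where at least 3 CpGs were measured on both strands (11397 tiles), 78 tiles were higher and 7 lower by 25 points on each strand by itself, and the strand differences correlated across tiles at r = 0.749. Within a library, 16 of these tiles differed by 25 points between strands in late ahESCs and 12 in the late diploid library.

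A tile in an exon of Dyrk3, a protein kinase gene, held 17 cytosines and stood at 64.1% in late ahESCs, 45.0% in late phESCs and 13.7% in late diploid cells. On its 2 strands late ahESCs were at 66.3% and 65.9%, and late diploid cells at 15.7% and 13.1%. A tile inside Ildr1, which encodes a tricellular junction protein, was at 57.4%, 14.8% and 8.04% in the same order. An exonic tile of Mtf1, the metal-responsive transcription factor, was at 58.4%, 13.8% and 13.5%. In both Ildr1 and Mtf1 the late ahESC library was therefore the one that stood apart. The reverse was rare: the tile chr10:105620000-105620999, at the promoter of the gene model Gm48377, was at 8.23% in late ahESCs against 61.6% in late phESCs and 74.2% in late diploid cells, and at 88.9% in early ahESCs. That tile had too few CpGs measured on both strands for a strand comparison.

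**Figure D1:**
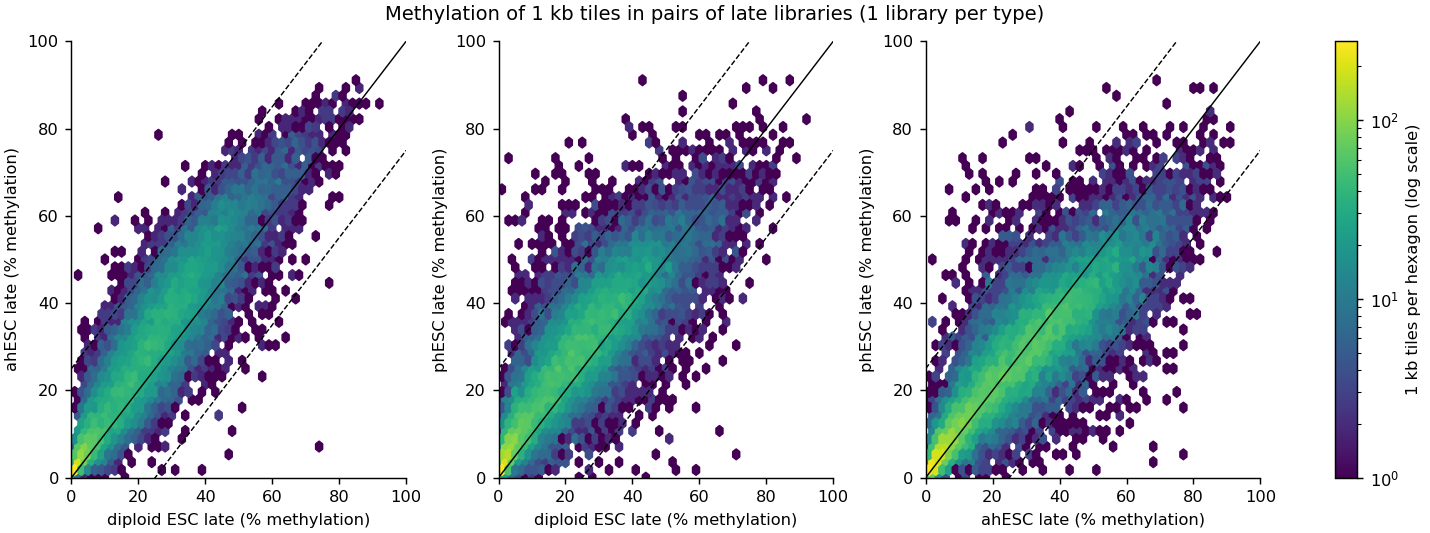
Level of each of the 18027 tiles of 1 kb in pairs of late libraries, in percent methylation, with the number of tiles per hexagon on a log colour scale. The solid line marks equal levels and the dashed lines a difference of 25 points, and the cloud of ahESC against diploid values (r = 0.916) lies mostly above the line of equal levels and is narrower than those with phESC values (r = 0.854 and 0.857).

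Late phESCs were also above late diploid cells, and this pair had more tiles far apart. The mean difference over cytosines was 3.98 points and the median over tiles 3.85 points, positive in 74.7% of tiles. At 25 points 317 tiles were higher (1.76%) and 83 lower (0.46%), and at 40 points 49 were higher and 13 lower. On each strand by itself 107 tiles were higher and 35 lower, with r = 0.626 between the strand differences. In late phESCs 132 of the 11397 tiles differed by 25 points between the strands of that library (1.16%), against 252 and 290 tiles called higher in the pair on the first and on the other strand.

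The tiles higher in late phESCs were lower at late than at early passage in the other 2 types, as most tiles were. Over the 317 tiles the mean in phESCs was 45.2% at early and 53.4% at late passage, while ahESCs went from 78.8% to 30.6% and diploid cells from 80.9% to 20.5%. Of 313 with an early value, 1 was lower by 25 points in late than in early phESCs, and 306 of 312 were lower in late than in early diploid cells. Over all tiles these counts were 537 of 17973 in phESCs and 13107 of 17892 in diploid cells. The late values chose the 317 tiles, and the 20% rule favours a drop over all tiles, so these changes are descriptions. The tile chr15:49081000-49081999 stood at 72.8% in late phESCs, 10.8% in late ahESCs and 3.74% in the late diploid library, and the tile chr5:53293000-53293999 at 66.0%, 6.15% and 1.17%. Both lie outside placed genes, and on each strand the phESC value of both was at 64.8% or more.

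The 83 tiles lower in late phESCs were a different case. Late ahESCs and late diploid cells had like means there, 54.1% and 53.4%, and late phESCs stood at 21.6% against 56.7% in early phESCs. Of 82 tiles with an early value, 74 were lower by 25 points in late than in early phESCs, against 537 of 17973 over all tiles, a drop that the choice of tiles by a low late phESC value favours. In ahESCs 30 of 81 were lower by 25 points at late passage and 5 higher, and in diploid cells 29 of 82 were lower and 11 higher. The tile chr3:145641000-145641999 was at 77.6% in late ahESCs and 71.5% in the late diploid library, at 16.8% and 6.23% in the early libraries of these types, and at 59.1% in early and 5.86% in late phESCs. It held 5 cytosines, too few on both strands for a strand comparison. The tile chr13:96324000-96324999 was at 58.4% and 65.7% in late ahESCs and diploid cells and at 11.6% in late phESCs, which stood at 8.57% and 14.6% on its 2 strands. In all, 11 of 2467 tiles that were under 20% in early ahESCs and early diploid cells reached 40% in a late library, 8 of them in late ahESCs, 5 in late diploid cells and 1 in late phESCs, and 12 of the 2467 were at 40% or more in early phESCs.

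The haploid types differed from each other in both directions. Over cytosines late phESCs were 1.41 points below late ahESCs, and the median over tiles was -0.55 points. At 25 points 191 tiles were higher in late phESCs (1.06%) and 270 lower (1.5%), and on each strand by itself 54 were higher and 108 lower. This balance turned when cytosines measured in these 2 libraries alone were used, with 641 tiles higher and 332 lower of 22451, so no direction is stated for the pair. The tile chr11:16861000-16861999 was at 77.9% in late ahESCs, 50.1% in late diploid cells and 15.9% in late phESCs, and both strands gave late phESC values of 16.6% and 15.2%. A tile inside Rbm20, a gene for a splicing regulator of heart muscle, was at 68.6%, 36.3% and 6.64% in the same order, against 8.06% and 2.57% in early ahESCs and early diploid cells. A tile at the promoter of the gene model Gm7192 ran the other way, at 71.4% in late phESCs, 11.3% in late ahESCs and 18.5% in the late diploid library. It held 5 cytosines and also allowed no strand comparison.

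**Figure D2:**
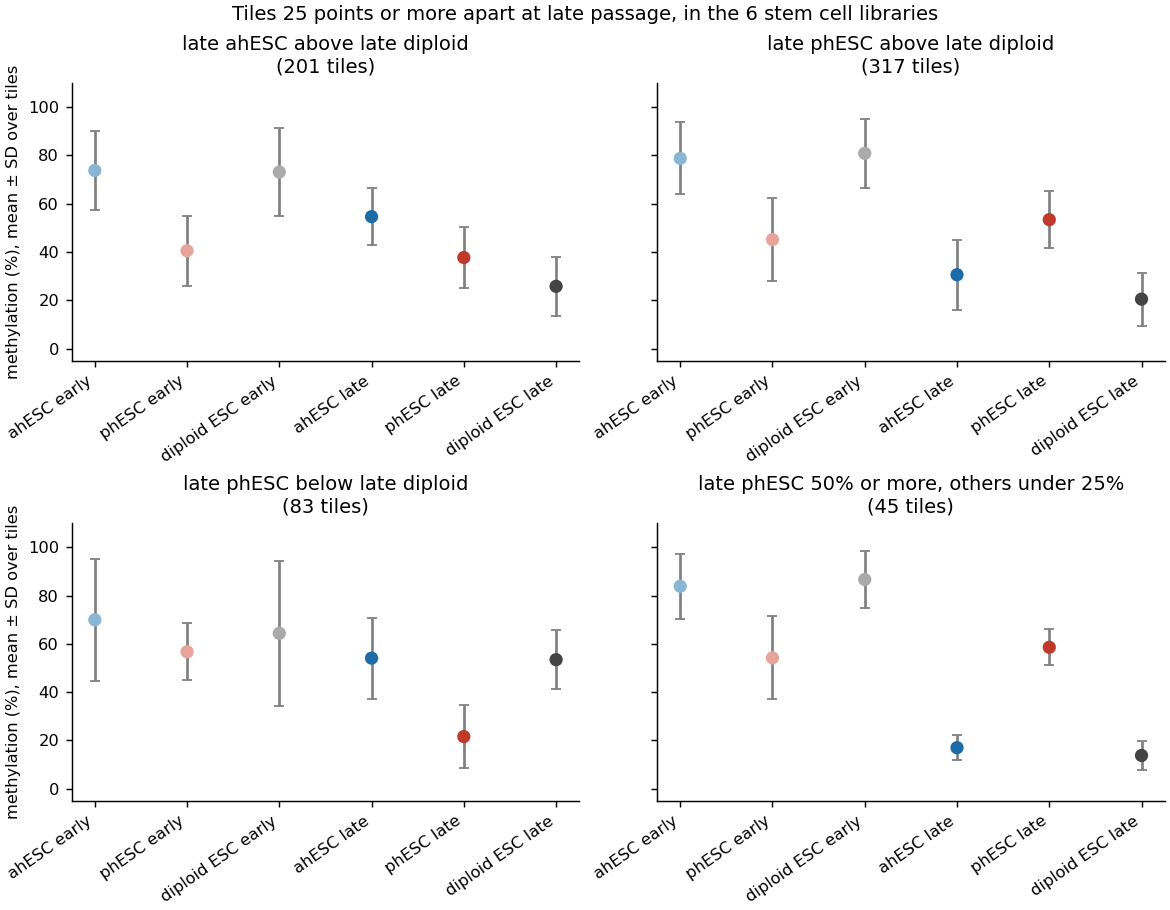
Mean methylation (percent, with the SD over tiles as bars) in the 6 stem cell libraries of tiles that differed by 25 points or more at late passage, and of the 45 tiles at 50% or more in late phESCs with the other late libraries under 25%. In the 317 tiles where late phESCs were above late diploid cells, early and late phESCs stood at 45.2% and 53.4%, whereas ahESCs and diploid cells dropped between passages.

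Tiles that set a library apart from both others were mostly phESC tiles. At 50% or more in that library and under 25% in the other 2, there were 45 tiles for late phESCs, 5 for late ahESCs and 1 for late diploid cells. The diploid tile is that of the Col6a5 promoter shown above, at 50.1%, 16.1% and 9.02% in late diploid cells, ahESCs and phESCs. The reverse pattern, under 25% in that library and at 50% or more in the others, held in 12 tiles for late phESCs, 1 for late ahESCs and 1 for late diploid cells. The larger strand noise of the late phESC library goes along with these counts, and its part in them was not tested.

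Promoters (1000 bp upstream to 500 bp downstream of a placed gene start, at least 5 cytosines) could be measured for 2582 of 21335 gene symbols with a placed start. A placed start may be that of any annotated transcript, including one that begins inside the gene. A promoter value here therefore need not be that of the main promoter. Of these, 869 (33.7%) were under 10% in all 3 late libraries. Late ahESCs exceeded late diploid cells by 25 points at 16 (0.62%) and were lower at 4 (0.155%). Late phESCs exceeded late diploid cells at 15 (0.581%) and were lower at 8 (0.31%). Late phESCs exceeded late ahESCs at 10 (0.387%) and were lower at 9 (0.349%). The promoter differences named below are those of promoters with at least 10 cytosines.

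The largest promoter difference was that of Tmem267, a transmembrane protein gene, and 3110070M22Rik, which start from the same region in opposite directions. Their 19 shared cytosines stood at 58.2% in late phESCs, 7.22% in late ahESCs and 3.24% in the late diploid library, and at 16.1% in early phESCs. Those with a value in early ahESCs and early diploid cells stood at 66.5% and 74.2%. The capital CpGs printed above from base 265 on had no value in either of these early libraries. The gene model Gm36816 was at 58.6%, 14.0% and 5.72% in late phESCs, ahESCs and diploid cells. It was at 67.3%, 88.7% and 92.4% in the early libraries of the same types. Spsb3, an adaptor of a ubiquitin ligase, was at 31.5% in late phESCs against 5.23% in late diploid cells. In late ahESCs the promoter of Gramd1a, a sterol transporter gene, was at 56.7% against 30.4% in late diploid cells, with late phESCs between them at 47.1%. The promoter shared by Fv1, which restricts infection by murine leukaemia viruses, and Miip was at 28.8% in late diploid cells, 2.87% in late ahESCs and 0.88% in late phESCs, with 34.4% in early phESCs and 0.47% in early diploid cells. Clcn4, a chloride-proton exchanger gene, was at 30.9% in late diploid cells, 19.4% in late ahESCs and 2.46% in late phESCs, with 51.5% in early phESCs and 5.79% in early diploid cells. At Fv1 and Clcn4 the late diploid value was thus nearer to that of early phESCs than to that of early diploid cells. Of the 3 promoters lower in late phESCs than in late ahESCs, Gm26870 (25.6% and 62.4%) and Gm10717 (31.2% and 64.3%) lie within 10 kb of each other near the start of chromosome 9, and as near-identical copies may share reads, both values are uncertain.

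Methylation that remained in common was found in 735 tiles, 4.08% of 18027, that were at 50% or more in all 3 late libraries. Their means were 68.1% in late ahESCs, 60.7% in late phESCs and 61.6% in late diploid cells, levels set in part by that rule. The rule itself did not use the other libraries. The cytosines of all tiles, these included, had been chosen by a minimum level in another library, which favours high levels there. In the other libraries the same tiles stood at 90.9% in early diploid cells, 89.3% in early ahESCs and 68.8% in early phESCs. They stood at 91.3% in the WT embryo and 92.3% in WT adult brain. All tiles averaged 58.8%, 57.5%, 33.8%, 69.4% and 73.8% in the same 5 libraries. Even these tiles had lost methylation in part: the median change from early to late passage was -30.4 points in diploid cells, -21.2 in ahESCs and -8.65 in phESCs, against -39.4, -30.0 and -5.67 over all tiles. The drop in these tiles was smaller than over all tiles in diploid cells and ahESCs, and larger in phESCs. The choice of tiles by high late values favours a small drop, and their early levels were higher, so this comparison is a description. Just under the threshold, 79 tiles had a lowest value from 49% to under 50%, and just above it 71 had one from 50% to under 51%, so the count has no natural edge. With each strand taken by itself, 358 of 11397 tiles passed on both strands, of 506 and 524 that passed on either.

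**Figure D3:**
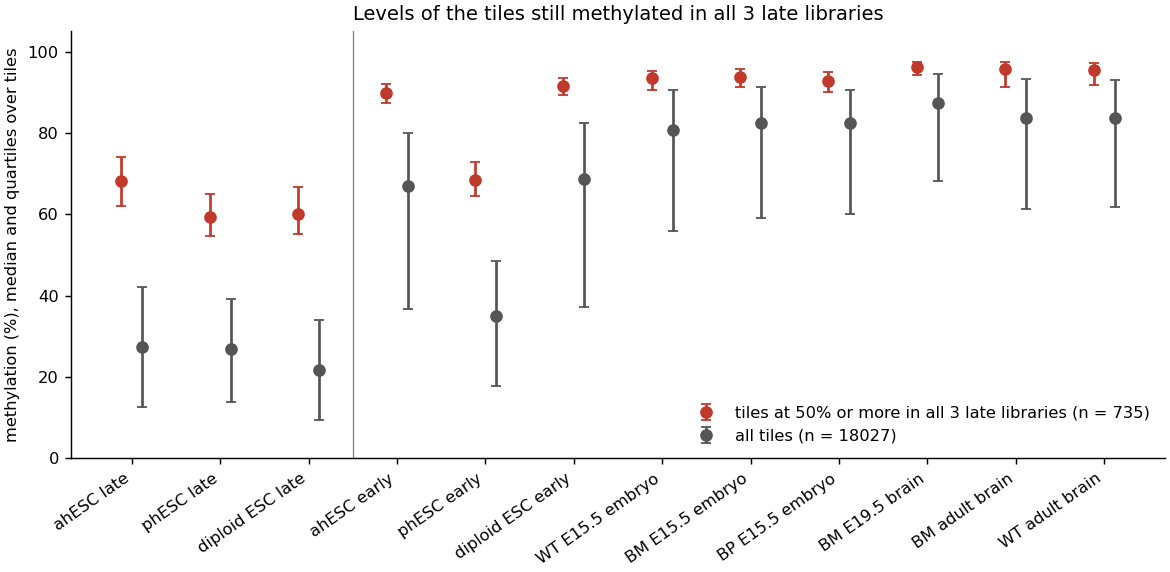
Methylation (percent, median with quartiles over tiles) in all 12 libraries of the 735 tiles at 50% or more in all 3 late libraries and of all 18027 tiles, with the 3 late libraries left of the vertical line. Outside the late libraries, by which the 735 tiles were picked from all tiles, the 735 tiles lie above all tiles in each library. The cytosines of both sets had been chosen by a minimum level in another library.

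The tiles with the highest shared level lay mainly outside placed genes. The highest lowest value was that of chr12:3149000-3149999, at 85.6% in late ahESCs, 90.1% in late phESCs and 87.0% in late diploid cells. An exonic tile of D10Wsu102e, a gene of unassigned function, was at 82.4%, 88.7% and 81.9%. D10Wsu102e had 3 such tiles, more than any other of the 267 genes with at least 1. Another of its tiles, at chr10:82877000-82877999, was at 84.8% in late ahESCs and 82.8% in the late diploid library but at 57.8% in late phESCs. The other tiles leading this order were chr10:18476000-18476999 (85.2%, 81.5% and 92.3%), chr9:38426000-38426999 (90.1%, 80.1% and 84.96%) and chr1:149941000-149941999 (81.1%, 79.2% and 82.9%), all outside placed genes. Of the 13 genes with at least 2 tiles, the other 12 had 2 each, among them Trrap, a histone acetyltransferase adaptor, Tcf4, a basic helix-loop-helix factor, and Gdpd3. The Gdpd3 sequence printed above (mm9 chr7:133909678-133909977) lies between its 2 tiles, which start at 133908000 and 133911000, and in neither. The first was at 72.1%, 67.1% and 69.5% in late ahESCs, phESCs and diploid cells. It was at 84.7%, 72.7% and 86.3% in the early libraries, whereas the printed sequence was higher at late passage in ahESCs and diploid cells.

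Of the 735 tiles 62.3% were outside placed genes and 5.31% at promoters, against 38.9% and 17.4% of all tiles. The share that remained was 6.54% outside placed genes, 3.4% between exons, 2.85% in exons and 1.24% at promoters. It rose with distance from the nearest placed gene start, from 1.24% under 1 kb to 7.27% beyond 100 kb. The classes also differed before passage: in early diploid cells promoter tiles averaged 43.7% and tiles outside placed genes 65.0%. By that level, 20.5% of tiles at 85% or more in early diploid cells remained, 0.953% of those at 75 to 85%, and 0 of 3249 under 25%. Of 2133 tiles at 85% or more in both early ahESCs and early diploid cells 638 (29.9%) remained, and they made up 86.8% of the 735. A high early level did not fix the late level: in these 2133 tiles late diploid values ran from 1.17% to 92.3%, late ahESC values from 2.95% to 90.1% and late phESC values from 9.09% to 90.1%. Remaining tiles were spread over all 19 autosomes and over 506 of 1209 bins of 2 Mb. Chromosome 3 had the highest share (6.38%) and chromosome 19 the lowest (1.98%), and 38 tiles lay within 10 kb of another. A bin of chr1:16000000-17999999 held 6 of its 11 tiles, the highest share of bins with at least 8.

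**Figure D4:**
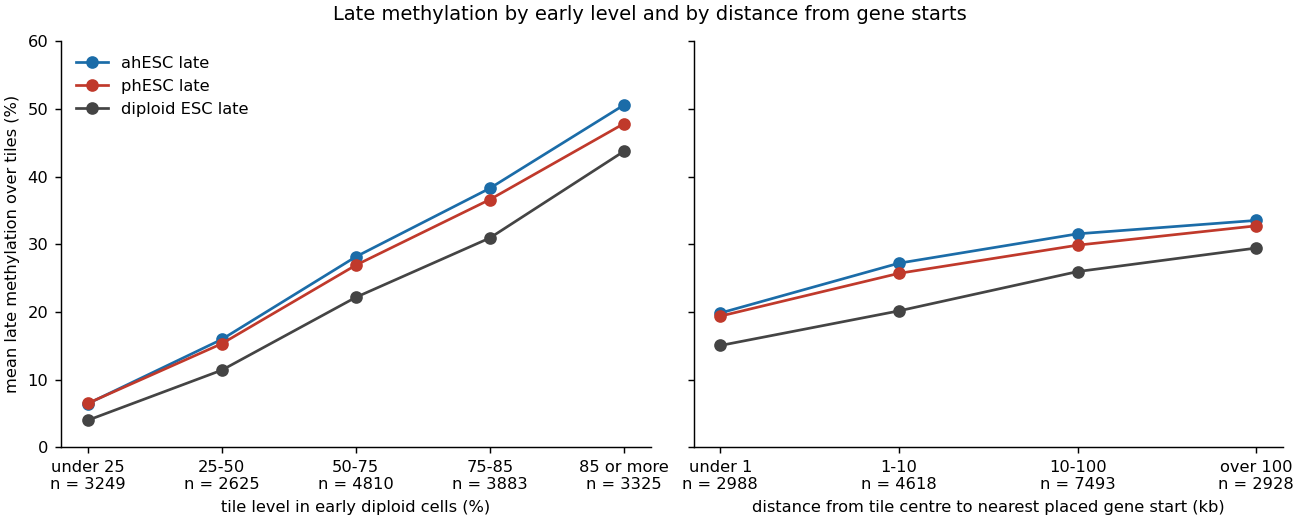
Mean methylation (percent) of tiles in the 3 late libraries, split by the level of the tile in early diploid cells and by the distance in kb of the tile centre from the nearest placed gene start, with the number of tiles under each point. In every class the late diploid mean is the lowest, and all 3 rise with the early level, from 6.45% to 50.6% in late ahESCs.

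The gap between haploid and diploid types was present over these classes. It was 2.45 points for ahESCs and 2.504 for phESCs in tiles under 25% in early diploid cells, and 7.34 and 5.68 points in tiles at 75 to 85%. On each autosome the mean was lowest in late diploid cells, by 4.14 to 6.75 points against ahESCs and 3.08 to 5.34 points against phESCs. The haploid difference ran from -2.37 points on chromosome 9 to 0.27 on chromosome 18.

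At promoters with at least 10 cytosines, the highest shared level was that of Prr12, a proline-rich nuclear protein gene, at 72.2% in late ahESCs, 68.7% in late phESCs and 62.3% in late diploid cells. Srrm2, a spliceosome protein gene, was at 65.7%, 56.95% and 59.9% in the same order. Mir433, a microRNA gene of the imprinted Dlk1-Dio3 region, was at 67.7%, 58.6% and 54.9%, with 88.6% in early ahESCs and 89.4% in early diploid cells. The promoters of Pdcl3, Taf1c (a subunit of an RNA polymerase I factor) and Engase (a deglycosylating enzyme) had lowest values of 51.4%, 51.1% and 50.1%. The remaining 4 of the leading 10 were provisional gene models, with lowest values from 49.7% to 58.1%. In all, 29 of 2582 promoters were at 50% or more in all 3.

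Late values were low at all the imprinted promoters that could be measured. Windows of 1000 bp either side of placed starts were called imprinted if the WT embryo or early diploid cells lay between 25% and 75% over at least 5 cytosines, which 16 windows of the maternally methylated class and 3 of the paternally methylated or somatic class did. The 16 maternal windows averaged 1.81% in late ahESCs (SD 1.53 over windows), 4.30% in late phESCs (SD 2.46) and 1.25% in late diploid cells (SD 1.20), with 49.4% in the WT embryo and 38.7% in early diploid cells, the 2 libraries by which the windows were chosen. In Mcts2-H13 (0.27%), Slc38a4 (1.75%), Gnas exon 1A (10.6%) and Magel2 (22.1%) early diploid cells were already under 25%. Inpp5f (0%) and Kcnq1ot1 (9.72%) were under 25% in the WT embryo and passed by early diploid cells, at 25.5% and 49.2%. Magel2, classed as maternal, was at 44.0% in the BP and 42.6% in the BM embryo. Over the 16 windows these embryos averaged 9.96% and 53.3%. Snrpn-Snurf, the start of the Prader-Willi domain, was at 0.11%, 0.49% and 0% in late ahESCs, phESCs and diploid cells, with 61.2% in early diploid cells. Grb10, a growth inhibitor gene, was at 2.30%, 5.34% and 2.01% over 106 cytosines, with 50.7% in early diploid cells. Peg3-Usp29 was at 0.55%, 6.94% and 0.80%, and Kcnq1ot1, the noncoding RNA of the Cdkn1c domain, at 0.43%, 4.37% and 0.44%. Magel2 had the highest late values, at 4.91%, 10.3% and 4.69%. No window differed by 25 points in any pair, and the largest difference was 6.39 points, between phESCs and ahESCs.

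Although phESCs carry a genome of maternal origin, early phESCs were also low in the maternal windows, at 2.49%, and early ahESCs at 5.51%. The small excess of late phESCs over late diploid cells had a mean of 3.05 points and the same sign in all 16 windows, from 0.49 to 6.14 points. An excess of late phESCs was also present in 74.7% of all tiles, with a mean of 3.98 points over cytosines. Against late diploid cells an excess was therefore not confined to the imprinted windows. Against late ahESCs the maternal windows were higher in late phESCs by a mean of 2.49 points, from -0.60 to 6.39. Over cytosines this difference was -1.41 points, and in tiles under 25% in early diploid cells it was 0.05 points. Whether the windows differ from other regions of low level was not tested. Nesp, Cdkn1c and the Igf2r promoter, whose methylation is paternal or arises after fertilisation, stood at 0.87% to 4.99% in the 3 late libraries and at 27.7% to 41.6% in the WT embryo. They were also low in early diploid cells, at 2.496% in Nesp, 6.37% in Cdkn1c and 0.96% in Igf2r. The Meg3 promoter had 4 cytosines, too few for the rule, and they were at 1.33%, 4.23% and 1.56% in late ahESCs, phESCs and diploid cells, with 47.9%, 1.29% and 54.5% in the early libraries of the same types. Mest, Airn, Cdh15 and H19 had no placed start, and Impact, Ndn and Rasgrf1 had 0 qualifying cytosines in their windows, so these were not analysed here.

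**Figure D5:**
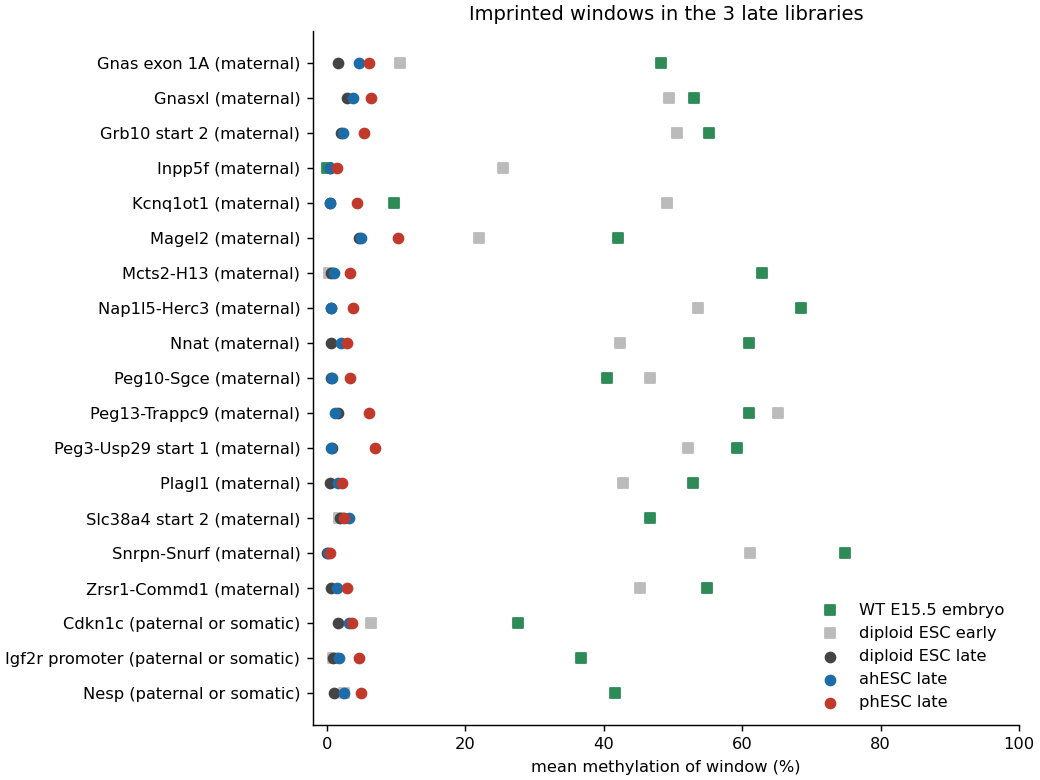
Mean methylation (percent) of 19 imprinted windows, with circles for the 3 late libraries and squares for the WT embryo and early diploid cells. All late values lie at 10.3% or lower. Late phESCs are the highest late library in 18 of the 19 windows, and in 42.3% of all tiles.

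The listed genes were read at their promoters. Of 27 germline genes 18 were measured, and none differed by 25 points in any pair, with median levels of 10.4% in late ahESCs, 10.95% in late phESCs and 10.4% in late diploid cells against 12.95%, 14.0% and 9.58% over all measured promoters. Over all promoters 0.155% to 0.62% differed in a given direction of a pair, so a count of 0 in 18 is near the background. Dpep3, a dipeptidase gene of the testis, was the germline promoter at 50% or more in all 3, at 63.7%, 51.3% and 54.1% over 6 cytosines. Tuba3b, a testis tubulin gene, was at 13.4%, 25.7% and 21.4%, down from 75.1%, 41.2% and 80.5% in the early libraries of the same types. Dazl, an RNA-binding regulator of germ cells, was at 14.1%, 7.48% and 11.4%, and Ddx4, a germ cell helicase, at 5.46%, 18.9% and 4.26%.

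Of 15 genes of the methylation machinery 5 were measured, with 5 to 9 cytosines each. The Tet1 window, of 5 cytosines, was higher in late phESCs (34.2%) than in late diploid cells (6.68%), with late ahESCs at 29.2%. It was at 69.6%, 16.3% and 67.5% in early ahESCs, phESCs and diploid cells, and at 97.7% in the WT embryo. The maintenance genes were at intermediate levels in the windows measured. Any of the 5 windows may lie at a start inside its gene, so none is read as the main promoter, that of Tet1 included. Dnmt1 was at 38.9%, 43.1% and 26.6% in late ahESCs, phESCs and diploid cells, against 77.0%, 46.8% and 77.8% in the early libraries of the same types. Uhrf1 was at 46.2%, 42.7% and 32.1%, against 78.9%, 42.3% and 80.6%. Tet3 was at 26.9%, 13.7% and 10.6%, and Dnmt3a at 1.05% or lower in all 3. The files hold no expression values for these genes.

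Axin1, a scaffold of the Wnt pathway beside which a retrotransposon of variable methylation is known in some strains, was among the remaining promoters, at 56.2%, 53.0% and 57.8% over 7 cytosines. Of 12 pluripotency genes only Pou5f1 was measured, at 1.15%, 1.52% and 0.52%. In late ahESCs, phESCs and diploid cells, Hand1, a trophoblast gene, was at 7.54%, 7.16% and 4.85%, and Twist2, a fibroblast gene, at 12.4%, 7.62% and 5.96%. The 9 measured protocadherin promoters were under 10% in all 3, as were 2 of 7 Hox, Pax and Gata promoters, 1 of 3 olfactory and vomeronasal receptor promoters and 7 of 20 Zfp promoters, against 33.7% of all promoters, and none of these differed by 25 points in any pair. Apart from the protocadherins these shares are near that of all promoters. The neural gene Rbfox3 was at 12.7%, 13.3% and 11.7% in late ahESCs, phESCs and diploid cells. The lists for pluripotency, trophoblast, feeder and neural genes rest on 1 measured gene each, so the labelled cell type could not be checked with them beyond the low level of Pou5f1.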

How the data were processed

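The deposited table gives a methylation percent from 0 to 100 for each listed cytosine and library, with N for a missing value. Per the submitters' processing notes the authors used Bismark 0.13.1 and Trim Galore, and the build was mm9. Coverage is not given, so the percent values were used as deposited, unweighted. All 12 columns were matched to samples by name, and 0 were left out.

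No mm9 annotation was used. RefSeq promoter sequences (GRCm38.p6) and GENCODE M21 exons were placed on mm9 where at least 8 listed positions matched the CG and GC pattern of the sequence. Of 99181 sequences with enough positions 96.2% were placed, against 0.00971% at a false shift of 2017 bp. This also gave the context (CpG, CCGG or GC) of 34.4% of listed autosomal positions, with 1226 conflicting positions set to unknown. Tile coordinates are mm9, and those of printed sequences GRCm38.

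Levels are means over cytosines with a value in all 3 late libraries that had reached 20% in 1 or more of the other 9. Tiles of 1 kb needed 5 cytosines. Higher or lower means a difference of at least 25 points. No test was made, because each group has 1 library. The tile caller was tested on simulated data. Named were listed genes 25 points apart with examples of each list, the 10 promoters with the largest differences each way, or with the highest lowest value, among those with 10 cytosines (the text gives the leading ones), and up to 5 tiles each way. The rule, members, lists and thresholds were chosen with earlier results of these data known. The alternatives were other minimums, contexts, tile sizes and thresholds, cytosines of 2 libraries, and medians. The scripts ran under Python 3.11.15 with Matplotlib 3.10.9, pandas 2.3.3 and NumPy 2.4.6.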

Additional observations from a re-analysis of the deposited data

How the results depend on the processing

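No paired analysis was possible because each type has 1 late library and the labels give no replicate numbers. A value counted as moved when it changed by more than 1.5 times. No mean difference changed sign under any alternative listed here, and tile counts have no sign to change. The balance of tiles between phESCs and ahESCs did turn. It went from 191 higher and 270 lower in phESCs to 641 and 332 with cytosines of these 2 libraries. Tiles of 2 kb, and cytosines at 50% in another library, moved none of the values.

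Without a minimum in another library (82151 tiles), the mean differences over cytosines shrank to 1.09 points (ahESC minus diploid), 0.43 (phESC minus diploid) and -0.66 (phESC minus ahESC). The tiles higher and lower were then 3 and 3, 43 and 9, and 32 and 32 in the same order of pairs, and 22 remained in all 3 libraries. The window means were 2.13% in late phESCs and 0.754% in late diploid cells. With known CpGs outside CCGG only (6475 tiles), tiles higher and lower were 78 and 4, 72 and 10, and 26 and 40, with 166 remaining and a mean difference between phESCs and ahESCs of -0.75 points. With at least 10 cytosines (5259 tiles), they were 54 and 8, 79 and 25, and 42 and 81, with 135 remaining. These 2 settings test fewer tiles by construction.

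With cytosines measured in the 2 libraries of a pair, 668 tiles were higher and 91 lower in ahESCs than in diploid cells, of 47046. Against ahESCs, 641 tiles were higher and 332 lower in phESCs, of 22451, with a mean difference of -0.25 points. More tiles are tested under this setting by construction. With medians over cytosines, 343 tiles had higher ahESC than diploid values and 416 had lower phESC than ahESC values. The phESC and ahESC medians differed by -0.40 points, and the window mean of late diploid cells was 0.746%. The cause was not tested.

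At 20 points tiles higher and lower were 669 and 40, 677 and 179, and 350 and 610, and at 40 points 8 and 2, 49 and 13, and 33 and 37. Tiles at 40% in all 3 numbered 2196 and at 60% in all 3 they numbered 214. Late phESCs had the highest mean of the maternal windows under every setting run. The unknown depth limits all counts, since the strand differences are the only measure of error.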
